A study of Mus musculus with 15 samples.

Results

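The EGF family signals through 4 receptors, Egfr, Erbb2, Erbb3 and Erbb4, and its ligands include amphiregulin (Areg), epiregulin (Ereg), Hbegf, Egf, betacellulin (Btc) and Tgfa. These 10 genes were taken as members, and each was followed by its symbol through every table that lists it. All 10 were found among 28269 genes listed in any table. For 9 members the deposited gene name is the symbol. The exception is Areg, whose identifier ENSMUSG00000029378 carries the deposited name Mcub in all 15 tables. RefSeq gives Mcub as an older synonym of Areg, and the mitochondrial gene Mcub has its own identifier, ENSMUSG00000027994. Areg was therefore followed by identifier, and every value given for it belongs to ENSMUSG00000029378.

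EGF family ligands are made as membrane-anchored precursors, released by metalloproteases of the ADAM family, and they bind receptor tyrosine kinases that pair with each other and signal through the RAS and MAP kinase cascade. Erbb2 binds no ligand of its own and Erbb3 has little kinase activity, so both work mainly as partners of another receptor. In the mouse uterus, Areg is known as a progesterone-responsive gene of the luminal epithelium around the time of implantation, and Hbegf is known as a ligand expressed in the luminal epithelium at the site of embryo attachment.

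The series profiled mouse uterine epithelium on day 4 by RNA sequencing, and its title names overactivation of Notch1 signalling as the subject. The inner surface of the uterus is covered by luminal epithelium (LE), and its glands consist of glandular epithelium (GE). There were 3 libraries in each of 5 groups, 15 in all: wild-type LE and GE, E-OEX LE and GE, and U-OEx LE. The labels give the genotype of E-OEX and of U-OEx as overexpression of Notch1, a receptor of cell-to-cell signalling. The sample titles separate the 2 kinds without saying what the abbreviations stand for. The labels used here name no promoter or Cre line that drives the overexpression, no strain and no age, and they do not say whether the libraries of a group came from separate animals. A p-value therefore measures the spread between these libraries, which may be technical.

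The tables list different genes, and this decides which members can be seen where. There are 6414 genes in the wild-type list and 4903 in the E-OEX list, and in both sets nearly every listed gene has GE and LE means at least 2-fold apart (1 E-OEX gene lay marginally under that). U-OEx tables list 27946 genes without such a selection. Comparisons that use wild-type or E-OEX libraries thus rest on values that also decided which genes are listed. Wild-type tables list 6 members (Areg, Ereg, Egf, Egfr, Erbb2 and Erbb3), E-OEX tables list 4 (Areg, Hbegf, Erbb2 and Erbb4), and U-OEx tables list all 10. Areg and Erbb2 are the 2 members listed in every table. Notch1 itself is listed only in U-OEx tables, at 2789 to 3524, so the genotype labels could not be checked on it. Recovered reads in listed genes ranged from 1980800 to 4797424 per library in the selected tables and from 13541644 to 14981505 in the U-OEx tables.

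Markers of the labelled cells were present. A marker found in every table had passed the listing for a GE and LE difference in wild type and in E-OEX. That GE and LE sums differ is thus partly fixed by the selection, though the direction is not. The summed value of 5 luminal marker genes found in every table ranged over 32374 to 58297 in wild-type LE, 15307 to 18770 in E-OEX LE and 7490 to 10979 in U-OEx LE. It was 409 to 859 in GE of wild type and 1018 to 1976 in GE of E-OEX. The summed value of 7 glandular marker genes was 23799 to 32026 in wild-type GE, 5886 to 9168 in GE of E-OEX, and at most 1441 in any LE library. The glandular markers Spink1 and Calca were at 0 in E-OEX LE, and Spink1 and Ttr were at 0 in U-OEx LE. Markers of stroma, muscle and endothelium were higher in GE than in LE. The sum of 8 stromal genes was 34363 to 101130 in GE of wild type and 76819 to 91582 in GE of E-OEX, against 369 to 7741, 521 to 2429 and 7764 to 21379 in wild-type, E-OEX and U-OEx LE. Most of the sum in U-OEx LE was Postn. Its mean there was 12696, above its means of 774 and 1022 in GE of wild type and E-OEX. The sum of 7 smooth muscle and pericyte genes was 5018 to 8234 and 19207 to 20616 in the same GE groups and at most 336 in any LE library, with Actg2 at 0 in wild-type LE and Rgs5 at 0 in LE of E-OEX. The sum of 6 endothelial genes was 2420 to 4071 and 2976 to 8773 in GE and at most 335 in LE, with Emcn at 0 in E-OEX LE. Leukocyte markers did not all go one way. In wild type, Lyz2 averaged 563 ± 354 (SD, n = 3) in LE and 2958 ± 858 in GE and Adgre1 21.2 ± 15.1 and 58.0 ± 16.6, while Cd52 averaged 62.0 ± 32.6 in LE and 25.1 ± 11.3 in GE. In E-OEX, Itgam alone of 8 leukocyte markers was listed, at 53.6 to 170 in LE and 14.9 to 24.0 in GE. The part of these other cells in the GE results was not tested. In bulk RNA, fewer cells of a type and less RNA per cell cannot be told apart.

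Areg and its neighbours lie together in the genome. In the GRCm38 build, Areg spans chr5:91139599-91148432 on the plus strand, Ereg chr5:91074622-91093646 on the plus strand and Btc chr5:91357261-91402994 on the minus strand. With Epgn, which encodes epithelial mitogen and lies at chr5:91027464-91035215, they are the only 4 protein-coding genes annotated in a stretch of 375.5 kb. The 250 bases upstream of the Areg start, chr5:91139349-91139598 on the plus strand (RefSeq, GRCm38.p6), are printed because Areg is the member that differed most between the groups. Capitals mark, from left to right, GTGGGAA (the core motif of RBPJ, the DNA-binding partner of Notch), TGACGTCA (the cAMP response element) and TATAAA (the TATA box).

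Areg promoter: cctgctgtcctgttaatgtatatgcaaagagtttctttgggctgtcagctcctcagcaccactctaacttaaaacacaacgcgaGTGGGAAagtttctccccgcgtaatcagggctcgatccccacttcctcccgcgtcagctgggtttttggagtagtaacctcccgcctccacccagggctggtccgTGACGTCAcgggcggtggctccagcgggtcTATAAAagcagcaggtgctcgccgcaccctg

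Counted back from the start of the gene, the first motif lies at positions -166 to -160, the second at -61 to -54 and the third at -31 to -26. Searched on both strands, these letters occur in 5.42%, 1.55% and 12.4% of 32851 RefSeq promoters of the same length. None of the 3 was present in the promoters of Egf, Btc, Tgfa, Egfr, Erbb2 or Erbb4. Those of Ereg, Hbegf and Erbb3 were not analysed here. The motifs were chosen after the sequence was seen, and a match describes the letters only.

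Areg was high in wild-type LE and low in both Notch1-overexpressing LE groups. Its deposited value, a read count scaled by 1 factor per library, was 1187, 1254 and 539 in the 3 wild-type LE libraries. In wild-type GE it was 278, 281 and 176. The wild-type epithelia did not overlap, as in 95.9% of genes in these selected tables, and LE was the higher of them. In LE of E-OEX the values were 19.2, 2.72 and 18.3. GE of the same genotype gave 97.1, 341 and 163. Here too the epithelia did not overlap, as in 89.9% of the listed genes, but GE was the higher of them. In U-OEx LE the values were 11.0, 0.889 and 5.76, and the second library held a single read. The plot of member values by library shows this order of groups, in which the 2 overexpressing LE groups overlap each other and the 2 GE groups overlap each other.

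**Figure D1:**
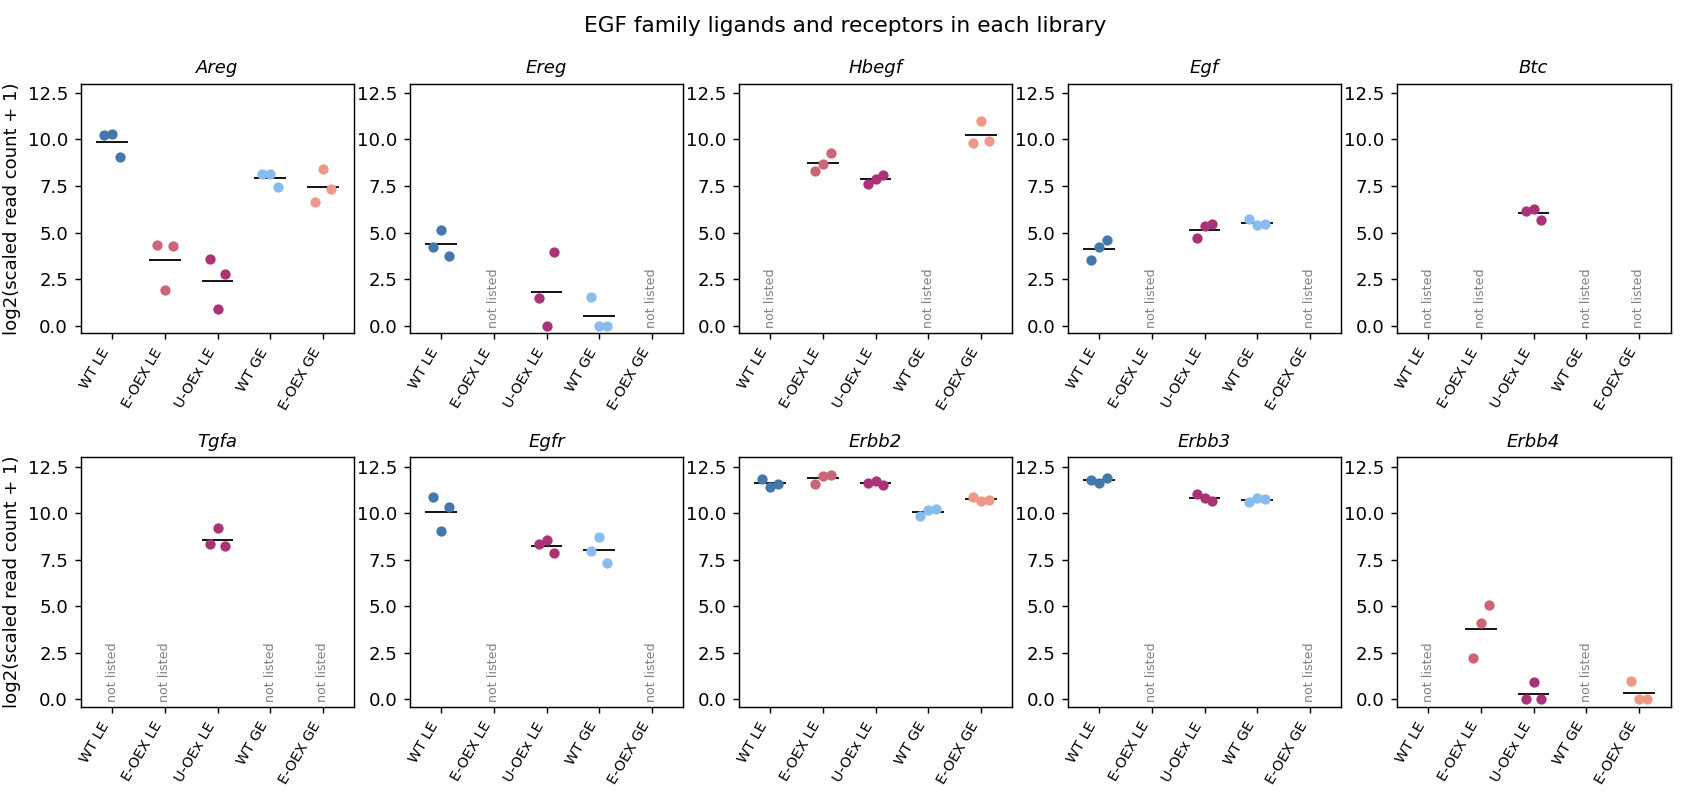
The log2 of the deposited value plus 1 (vertical axis) for each member (panels), with 1 point per library, in the groups whose tables list it; short bars are means of the logged values. Areg lies at 539 to 1254 in wild-type LE and at most at 19.2 in E-OEX LE and 11.0 in U-OEx LE, while Erbb2 stays between 2737 and 4266 in all 9 LE libraries.

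Erbb2 was high in LE of every genotype. Its values were 3701, 2737 and 3080 in wild-type LE, then 3070, 4106 and 4266 in LE of E-OEX, and 3130, 3389 and 2978 in U-OEx LE. The 3 LE groups overlapped. In GE the values were lower, at 927, 1133 and 1183 in wild type and 1895, 1585 and 1659 in E-OEX, and no GE library reached the lowest LE library. On 1 scale common to all 15 libraries (TMM rescaling of the shared genes), Erbb2 averaged 4172 ± 45.5 (SD, n = 3) in wild-type LE, 4564 ± 886 in LE of E-OEX and 4072 ± 392 in LE of U-OEx. Its GE means were 869 ± 107 (wild type) and 1053 ± 176 (E-OEX). On the same scale Areg averaged 1323 ± 578 in wild-type LE, 15.4 ± 10.8 in LE of E-OEX and 7.49 ± 6.45 in LE of U-OEx. Its GE means were 197 ± 44.6 (wild type) and 121 ± 75.2 (E-OEX). Among neighbours in this order, the 2 GE groups overlapped for Areg, and so did the 2 overexpressing LE groups.

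Whether the overexpression changed LE was asked first with E-OEX against wild type, in which 10.7% of 2600 genes passed the test (limma, adjusted p under 0.05), 5.12% higher and 5.54% lower in E-OEX. Of the 2 members tested, Areg was lower and Erbb2 did not pass. Areg fell by 6.53 on the log2 scale (SE 0.71, 95% interval -8.11 to -4.95, limma adjusted p = 0.00144), which is 92.4-fold lower, and it ranked as the second lowest of the 2600 log2 differences. The E-OEX and wild-type LE values of Areg did not overlap, which was so for 29.9% of the genes tested. Areg had been listed with LE the higher epithelium in wild type and the lower in E-OEX. Its difference between these LE groups is thus not independent of the selection of the tables. Erbb2 differed by 0.09 (SE 0.41, 95% interval -0.82 to 1.0, limma adjusted p = 0.911). Fold changes were taken after adding 1 to each value, so they are too small where values are low. Genotypes were compared after reads of the shared genes had been rescaled together. Wild-type, E-OEX and U-OEx libraries were deposited as separate sets of tables, so genotype and table set cannot be told apart.

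In U-OEx LE against wild-type LE, 56.9% of 5947 genes passed (29.1% higher and 27.8% lower in U-OEx), and of the 6 members tested 3 were lower (Areg, Egfr and Erbb3), none was higher and 3 did not pass. The share of members called was thus close to the background. The median log2 difference over the 6 was -1.41, against 0.09 over all genes tested. Of the 6, 5 had been listed in wild type with LE higher, and Egf with GE higher. The same wild-type LE libraries are the reference here, so that listing favours lower values in U-OEx for the 5. The median and the calls are thus not independent of the selection. Areg fell by 7.46 on the log2 scale (SE 0.71, 95% interval -9.08 to -5.83, limma adjusted p = 7.89e-05), a 176-fold difference that ranked as the 32nd lowest of 5947. Cell type markers moved in the same comparison. The luminal sum was 7490 to 10979 in U-OEx LE against 32374 to 58297 in wild-type LE, and 4 general epithelial markers summed to 31571 to 45803 against 77523 to 87885. Stromal (7764 to 21379 against 369 to 7741), glandular (8 genes, 1040 to 1441 against 49.7 to 112) and leukocyte sums (Cd52, Lyz2 and Adgre1, 1241 to 2696 against 326 to 1078) were higher. The stromal sum was higher through Postn alone, which averaged 12696 in U-OEx LE. Mean Vim, Pdgfra, Col1a1, Col1a2, Col3a1, Hand2 and Hoxa11 were all lower in U-OEx LE than in wild-type LE. The part of these markers in the U-OEx results was not tested. E-OEX and U-OEx were compared with the same wild-type LE libraries, so these 2 Areg results are not independent.

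The receptor Egfr, which binds most ligands of the family, measured 1904, 521 and 1305 in wild-type LE and 320, 375 and 234 in U-OEx LE. The groups did not overlap, as was so for 63.9% of the genes tested, although wild-type replicate 2 stood near the U-OEx values. Egfr fell by 1.86 on the log2 scale (SE 0.50, limma adjusted p = 0.0127). The adjusted p was 0.0564 without wild-type replicate 3 and 0.0544 without U-OEx replicate 3. Stromal marker sums were highest in wild-type replicate 2 (7741) within the wild-type LE group, and their part in the Egfr values was not tested.

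Erbb3, the receptor that depends on a partner kinase, measured 3483, 3151 and 3837 in wild-type LE and 2059, 1792 and 1638 in U-OEx LE. All U-OEx libraries lay below all wild-type libraries, and 63.9% of the genes tested had groups that did not overlap. Erbb3 fell by 0.96 on the log2 scale (SE 0.21, limma adjusted p = 0.00547), and with quantile normalization the difference was -0.30 (limma adjusted p = 0.178). Erbb2, in contrast, differed by -0.02 (SE 0.23, 95% interval -0.54 to 0.51, limma adjusted p = 0.955), with quantile normalization by 0.71 (adjusted p = 0.0146), so its comparison depends on the scaling.

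Of the other ligands, Ereg measured 17.6, 34.8 and 12.3 in wild-type LE and 1.84, 0 and 14.4 in U-OEx LE. The third U-OEx library lay within the wild-type range. The log2 difference was -2.57 (SE 0.97, limma adjusted p = 0.0514), and without that library it was -3.59 (adjusted p = 0.00966). The call was also gained with DESeq2 size factors (-2.64, adjusted p = 0.0446) and with quantile normalization (-2.65, adjusted p = 0.0422), so it depends on the scaling as well. Egf, the ligand that gave the family its name, measured 10.4, 17.4 and 23.5 in wild-type LE and 24.8, 40.0 and 42.3 in U-OEx LE. Every U-OEx library lay above every wild-type library, and 63.9% of all genes tested had groups that did not overlap. The log2 difference of Egf was 1.03 (SE 0.47, 95% interval -0.05 to 2.11, limma adjusted p = 0.0928).

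The 2 overexpressing LE groups were compared for 4 members, with 15% of 4266 genes passing the test (6.99% higher and 8.06% lower in U-OEx). The luminal sum was 15307 to 18770 in E-OEX LE and 7490 to 10979 in U-OEx LE, while the sum of 10 stromal genes was 631 to 3151 and 8702 to 21515 and the leukocyte marker Itgam was at 53.6 to 170 and 546 to 1138. The stromal sums differed mainly by Postn, which averaged 225 in E-OEX LE and 12696 in U-OEx LE. Mean Vim and Pdgfra were also higher in U-OEx LE, Dcn and Hand2 were close, and Col1a1, Col1a2, Col3a1, Lum and Hoxa11 were lower. The part of these markers was not tested. Erbb4 was lower in U-OEx, and Areg, Hbegf and Erbb2 did not pass, with a median log2 difference of -1.11 over the 4 members and 0.06 over all genes tested. Erbb4, a receptor for neuregulins and some EGF-like ligands, measured 3.65, 16.3 and 32.4 in E-OEX LE and 0, 0.889 and 0 in U-OEx LE. These are 52 reads against 1, a ratio of 54.2 (95% interval 9.31 to 2181, exact and for counting error only). Erbb4 had been listed in E-OEX with LE the higher epithelium, and the same E-OEX LE libraries are the reference here. That listing favours a lower value in U-OEx, so the ratio and the Erbb4 test are not independent of the selection. The limma adjusted p was 0.0259, and it was 0.0609 without a filter on low values and 0.0532 to 0.113 in 5 of the 6 fits that left out a library. Hbegf, which is both a ligand and a membrane protein, measured 319, 415 and 611 in E-OEX LE and 196, 232 and 276 in U-OEx LE. The groups did not overlap, as was so for 38.2% of the genes tested, and the log2 difference was -1.03 (SE 0.38, 95% interval -1.89 to -0.17, limma adjusted p = 0.0965). Areg differed by -1.18 (SE 0.89, 95% interval -3.20 to 0.84, limma adjusted p = 0.391) and Erbb2 by -0.39 (SE 0.31, 95% interval -1.10 to 0.32, limma adjusted p = 0.421).

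In GE, E-OEX was compared with wild type for Areg and Erbb2, with 23.5% of 2850 genes passing the test (9.72% higher and 13.8% lower in E-OEX). Neither member passed by limma, with or without adjustment, by edgeR or by DESeq2. Areg differed by -0.91 (SE 0.43, 95% interval -1.86 to 0.04, limma adjusted p = 0.159), and on the deposited scale by -0.45 (adjusted p = 0.459). Without E-OEX GE replicate 2, the library with the highest Areg of its group, the difference was -1.40 (adjusted p = 0.0234). Erbb2 differed by 0.20 (SE 0.23, 95% interval -0.31 to 0.72, limma adjusted p = 0.59), and on the deposited scale by 0.67 (adjusted p = 0.0463). Marker sums of the GE groups differed too. The muscle and pericyte sum was 5018 to 8234 in wild type and 19207 to 20616 in E-OEX, and the glandular sum 23799 to 32026 and 5886 to 9168. Of the glandular genes, Foxa2 (means 2364 and 2265) and Wfdc3 (1870 and 2215) were close. The part of these markers was not tested.

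The difference between the epithelia was then compared between genotypes, as an interaction, and 10.7% of 2933 genes passed (5.83% above 0 and 4.91% below). The GE minus LE difference of Areg was -1.95 (SE 0.38) in wild type and 3.96 (SE 0.78) in E-OEX. The difference of the 2 was 5.91 on the log2 scale (SE 0.93, 95% interval 3.90 to 7.92, limma adjusted p = 0.00199), which ranked 12th highest of 2933. The order of the epithelia for Areg was thus opposite in the 2 genotypes, and the level in LE moved more than the level in GE. The genes tested had been listed for a GE and LE difference in both genotypes. Those of opposite order therefore generally lie far from 0, so the interaction is not independent of the selection. For Erbb2, the GE minus LE difference was -1.55 in wild type and -1.14 in E-OEX, and the interaction of 0.41 did not pass (SE 0.37, 95% interval -0.39 to 1.20, limma adjusted p = 0.558). The plot of log2 differences shows Areg on opposite sides of 0 in the 2 genotypes.

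**Figure D2:**
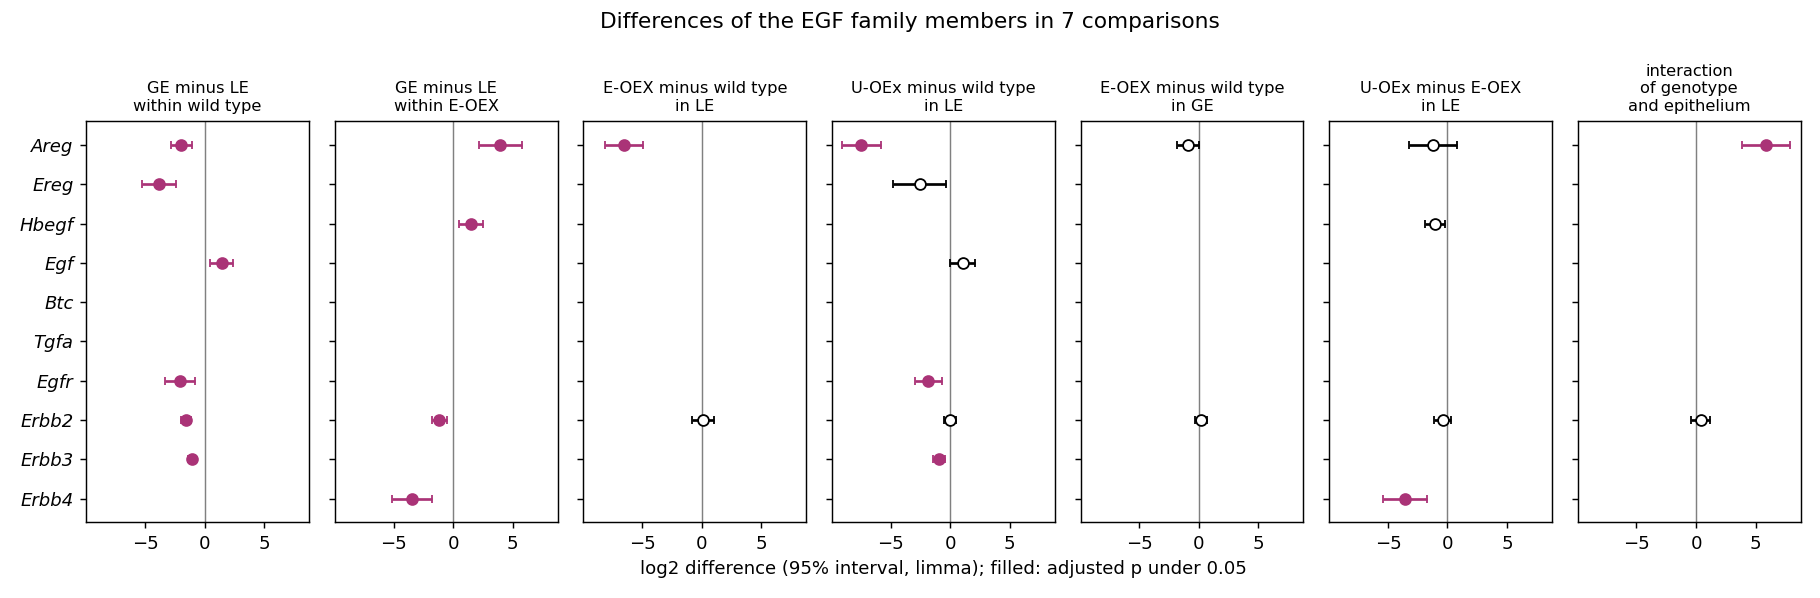
Fitted log2 difference (horizontal axis) with its 95% interval for each member tested in each comparison (panels); filled points passed the test at an adjusted p under 0.05 and open points did not. Areg lies at -1.95 for GE minus LE in wild type and at 3.96 in E-OEX, at -6.53 and -7.46 for the overexpressing LE groups against wild type, and Erbb2 lies within 0.09 of 0 in both of the latter.

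Within wild type, 97% of 6414 genes passed between GE and LE (56.6% higher in GE and 40.5% lower), because the tables were selected for this difference, so the 6 calls among the 6 members tested are a description. Areg, Ereg, Egfr, Erbb2 and Erbb3 were lower in GE and Egf was higher, with a median log2 difference of -1.75 against 1.36 over all genes tested. The selection leaves no listed gene near 0, so these medians depend on how many genes lie on each side of 0. Ereg measured 17.6, 34.8 and 12.3 in LE and 1.95, 0 and 0 in GE, which is 62 reads against 2, a ratio of 35.4 (95% interval 9.39 to 299, exact and for counting error only). Egfr in GE measured 247, 420 and 161, below every LE library, with a log2 difference of -2.09 (SE 0.53). Erbb3 in GE measured 1535, 1794 and 1711, a difference of -1.05 (SE 0.16). Egf ran the other way, with 51.6, 41.7 and 43.3 in GE and a difference of 1.43 (SE 0.42, limma adjusted p = 0.0133), which was 0.51 with quantile normalization (adjusted p = 0.252) and had an adjusted p of 0.054 without wild-type GE replicate 1. GE also held more stromal, muscle and endothelial marker RNA, as given above.

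Within E-OEX the tables were selected in the same way, and 91.6% of the 4903 genes were called (61.5% with GE higher, 30.1% with GE lower), as were all 4 members tested. Areg and Hbegf were higher in GE, and Erbb2 and Erbb4 were lower, with a median of 0.17 against 1.75 over all genes tested. As the selection leaves no listed gene near 0, these medians depend on how many genes lie on each side of 0. Hbegf measured 319, 415 and 611 in LE and 913, 2023 and 971 in GE, a difference of 1.49 (SE 0.43, limma adjusted p = 0.0134). Replicate 2 was the highest GE library for Hbegf, as it was for Areg. The Hbegf call was lost with TMM rescaling (0.75, adjusted p = 0.143), with quantile normalization (1.06, adjusted p = 0.0533) and without GE replicate 2 (1.12, adjusted p = 0.0525). Erbb4 in GE measured 1.0, 0 and 0, so that 52 reads in LE stood against 1 in GE, a ratio of 48.9 (95% interval 8.39 to 1967, exact and for counting error only). In neither genotype did the size of the Ereg or Erbb4 difference bear on the median, since each was the lowest value of its list.

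Levels of different members were compared per kilobase of exon. In wild-type LE, Areg averaged 817 (range 443 to 1032), Erbb2 609 (525 to 710) and Erbb3 580 (524 to 638), and these 3 ranges overlapped. Egfr followed at 110 (46.0 to 168), then Ereg at 5.23 and Egf at 1.51. In replicate 3 Areg, at 443, lay below every Erbb2 and Erbb3 library, and Hbegf, Btc, Tgfa and Erbb4 are not listed in wild type, so no member is ranked first there. In U-OEx LE, where all 10 are listed, receptors were highest, with Erbb2 at 608 (572 to 651), above 95.3% of the 22656 genes whose mean there was 1 or more, and Erbb3 at 304 (272 to 342). Tgfa, a ligand that is often made by the cells that respond to it, averaged 61.8 (46.5 to 89.4) and overlapped Hbegf at 48.5 (40.5 to 57.0). These 2 ligands stood near the middle of all genes, above 60.2% and 56.0% of them. Egfr was at 27.3 (20.7 to 33.1) and did not overlap Hbegf, and Btc was at 14.6 (11.0 to 17.1). Areg, at 4.85 (0.731 to 9.08), overlapped Egf at 3.17 (2.20 to 3.75) and Ereg at 1.31 (0 to 3.49). Erbb4 was the lowest, with a single read over the 3 libraries. The deposited values behind these levels were 322, 580 and 302 for Tgfa and 70.8, 77.3 and 49.9 for Btc, both listed only in U-OEx tables. Epgn, the neighbour of Ereg, averaged 0.960 ± 1.66 (SD, n = 3) as a deposited value in U-OEx LE. The plot of per-kilobase levels shows both orders.

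**Figure D3:**
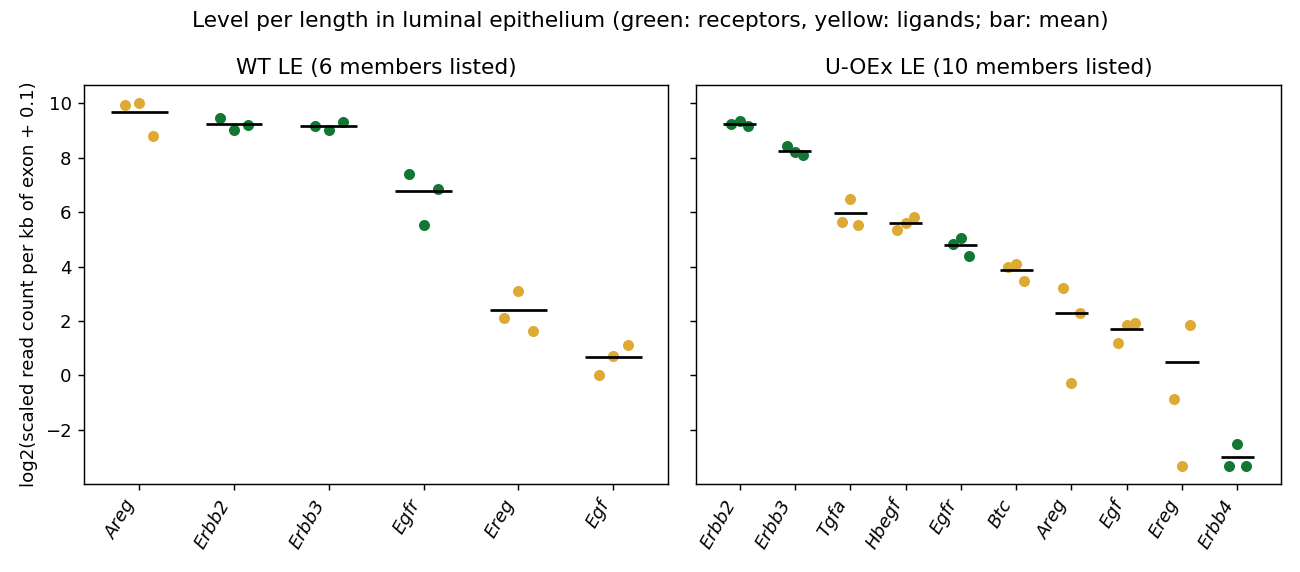
The log2 of the deposited value per kilobase of exon plus 0.1 (vertical axis) for each member in wild-type LE and U-OEx LE, with 1 point per library and a bar at the mean. Areg averages 817 in wild-type LE, where its range overlaps those of Erbb2 and Erbb3 and 4 members are not listed, and 4.85 in U-OEx LE, while Erbb2 is at 609 and 608.

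Genes whose level followed Areg or Erbb2 over the 15 libraries were sought among 2486 genes, as a description; the libraries share their groups, so any gene that separates the groups alike scores high. Closest to Areg were Myl3, which encodes a myosin light chain (Pearson r = 0.908 on log2 values), Fez1 (0.903) and Zbtb16, which encodes the zinc finger repressor PLZF (0.892). On the common scale Myl3 averaged 69.1 in wild-type LE, 3.28 in wild-type GE, 3.52 in E-OEX GE and 0 in both overexpressing LE groups. It was thus near 0 outside wild-type LE. Fez1 averaged 87.7 and 21.0 in wild-type LE and GE, 6.05 and 30.05 in LE and GE of E-OEX, and 0.40 in U-OEx LE. Zbtb16 averaged 1156 in wild-type LE and 342 in wild-type GE, and the E-OEX means were 35.2 for LE and 612 for GE. Its mean in LE of U-OEx was 29.7. Closest to Erbb2 were Vsig10 (0.989), Zfp760 (0.987) and Gm30437 (0.985).

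Beyond the members, the rest of the pathway was followed in 5 lists: 5 other EGF-like ligands, 11 genes of ligand shedding and trafficking, 25 receptor adaptors and effectors, 23 receptor inhibitors and feedback genes, and 18 genes known to be induced by EGF receptor signalling. In U-OEx LE against wild type, with 56.9% of all genes called, 4 of the 7 induced genes tested were higher and 1 was lower, with a median log2 difference of 1.70 against 0.09 over all genes. Of the 7, 5 had been listed with wild-type LE lower, Phlda1, Myc and Etv4 among them, and that listing favours higher values in U-OEx. Hmga2, called lower, and Ptgs2, called higher, had been listed with wild-type LE higher. The counts and the median are thus not independent of the selection. By edgeR 3 of these 7 genes were called, against 5 by limma and by DESeq2. In the same libraries the leukocyte marker means were 62.0 in wild type and 467 in U-OEx for Cd52, 563 and 1577 for Lyz2, and 21.2 and 84.7 for Adgre1. The part of these markers, and of the Postn difference given above, was not tested. Phlda1 rose by 3.90 (SE 0.36, limma adjusted p = 7.17e-05). Myc, a transcription factor of cell growth, rose by 2.19 (SE 0.46, limma adjusted p = 0.00406). Etv4, an ETS transcription factor, had 54 reads in U-OEx LE and 1 in wild-type LE, a ratio of 47.1 (95% interval 8.10 to 1893, exact and for counting error only).

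Among the inhibitors and feedback genes in the same comparison, 2 of 7 were higher and 1 was lower (median 0.59). Lrig3, a transmembrane regulator of the receptors, rose by 2.08 (SE 0.31), Cblc, a ubiquitin ligase, rose by 1.34 (SE 0.21), and Errfi1, which encodes the EGF receptor inhibitor MIG6, fell by 1.48 (SE 0.26, limma adjusted p = 0.00182). Of 4 adaptors and effectors (median -0.69; 3 called by limma and DESeq2, 2 by edgeR), the kinase gene Braf fell by 2.10 (SE 0.26), Eps8 rose by 1.16 (SE 0.33) and Nras fell by 0.58 (SE 0.21). Of 5 shedding and trafficking genes (median 0.36), Adam19 rose by 4.92 (SE 0.81) and Adam15 by 0.92 (SE 0.29), both metalloproteases. The calls of Nras, Eps8 and Adam15 were each lost when 1 or another library was left out. The only other ligand tested, the neuregulin Nrg1, did not pass (log2 difference -0.76). The wild-type listing bears on these genes too. Cblc had been listed with wild-type LE higher and rose, and Errfi1 with wild-type LE lower and fell. The other genes called here moved the way the listing favours.

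Between E-OEX and wild-type LE, with 10.7% of all genes called, none of the 14 tested genes of these lists passed (2 shedding, 1 adaptor, 5 inhibitor and 6 induced genes, with list medians of 0.03, -0.06, 0.12 and -0.16 against -0.09 over all genes). At an unadjusted limma p under 0.05 there were 1 inhibitor and 3 induced genes, edgeR called 0 of the 14, and DESeq2 called 3 induced genes. Between E-OEX and wild-type GE, with 23.5% called and the difference taken as E-OEX minus wild type, 4 of 6 induced genes were higher and 1 was lower (median 1.20 against 0.05). Egr1, an immediate-early transcription factor, rose by 1.69 (SE 0.28), Myc by 1.33 (SE 0.27) and Phlda1 by 1.21 (SE 0.25), and in 1 fit over all 5 groups their adjusted p were 0.0946, 0.108 and 0.219. The muscle and glandular marker sums also differed between the GE groups, as given above, and their part was not tested. Spred3, an inhibitor of RAS signalling, fell by 1.15 (SE 0.31), the only call among 5 inhibitor genes (median -0.13). It was lost on the deposited scale (adjusted p = 0.164) and without any 1 of the wild-type GE libraries. By limma, edgeR or DESeq2, and at an unadjusted p, 0 of 2 shedding genes and 0 of 1 adaptor passed (medians 0.21 and -0.21).

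In the interaction, Egr1 passed with 3.58 (SE 0.82, limma adjusted p = 0.0149), the only call among 6 induced genes (median 0.48 against 0.33 over all genes), and Errfi1 passed with 1.86 (SE 0.53, limma adjusted p = 0.0405), the only call among 5 inhibitor genes (median -0.19). The Errfi1 call was lost with another pseudocount (adjusted p = 0.0518) and with TMM rescaling (0.0819), and in several fits that left out a library. Here too 0 of 2 shedding genes and 0 of 1 adaptor passed by limma, also unadjusted, edgeR or DESeq2 (medians 0.48 and 0.15). In U-OEx LE against E-OEX LE, 1 of 14 induced genes (Fos, higher by 1.66, SE 0.38), 1 of 5 shedding genes (Adam19, higher by 3.52, SE 0.89) and none of 13 inhibitor genes, 1 adaptor and 1 ligand passed, against 15% of all genes. Of the 13 inhibitor genes, 5 had an unadjusted limma p under 0.05, and edgeR called 0 and DESeq2 2. List medians were 0.64, 0.72, -0.04, -1.0 and 0.42, and 0.06 over all genes. Fos and Adam19 were each lost without a filter on low values (adjusted p 0.0583 and 0.0886).

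Between the epithelia the pathway genes were called about as often as all genes, since the tables were selected for this. For the same reason the medians within each genotype depend on how many genes lie on each side of 0. Within wild type, GE was higher for 4 and lower for 1 of 5 shedding genes (median 1.29), 2 and 2 of 4 adaptors (0.28), 4 and 2 of 7 inhibitors (1.30), and 5 and 2 of 7 induced genes (1.84), against a median of 1.36 over all genes. The log2 differences were 4.82 for Adam19, 3.50 for Adam12 and 1.29 for Adam15. Those of Grb14, Eps8 and Nras were 2.78, 1.81 and -1.38. Those of the inhibitors Lrig3, Spred3 and Cblb were 3.14, 1.95 and 1.36. Among induced genes, Phlda1 was at 4.48 and Ptgs2, which encodes the prostaglandin synthase COX-2, at -4.06, and Etv4 had 37 reads in GE and 1 in LE, a ratio of 32.4 (95% interval 5.47 to 1314, exact and for counting error only). Nrg1, the only other ligand tested, was lower in GE by a log2 difference of -4.15.

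Within E-OEX, GE was higher for 3 and lower for 1 of 5 shedding genes (median 3.76), 1 of 1 adaptor, 10 and 2 of 13 inhibitors (2.52) and 12 and 2 of 14 induced genes (2.53), against a median of 1.75 over all genes. The log2 differences were 4.92 for Adam12, 4.35 for Adam19, 3.76 for the protease inhibitor gene Timp3 and 2.92 for Grb14. Those of the feedback genes Dusp1, Errfi1 and Spry4 were 3.85, 3.16 and 3.07. The immediate-early genes Egr1, Egr3 and Fos stood at 5.42, 4.95 and 4.43. Nrg2, the only other ligand tested, was at 3.86. The stromal, muscle and endothelial marker sums given above were also higher in GE, and their part in these differences was not tested.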

How the data were processed

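RNA of luminal and glandular uterine epithelium on day 4 was extracted with a Qiagen RNeasy kit and sequenced from NEBNext Ultra libraries, per the labels' protocols. The authors' deposited values are a signal: read counts divided by 1 factor per library, as read from the values, all of which (100%) gave a whole read within 0.01 once divided by the value of 1 read. The builds GRCm38 and mm10 are named in the submitters' processing notes; the aligner, counter, annotation and scaling are not given in the sources used here. Coordinates and exon lengths are from GENCODE M21 (GRCm38).

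The members and all lists were chosen with earlier results of these data known. Each test was limma (version 3.58.1, R 4.3.3, mean-variance trend) on log2(value + 1) for genes with a mean of at least 1, with Benjamini-Hochberg adjustment over all genes of the comparison and a threshold of 0.05. Comparisons within a genotype and the interaction used deposited values. For genotype comparisons, recovered reads of the genes listed in both sets were rescaled with TMM (edgeR 4.0.16). With 3 libraries a group, intervals on read ratios cover counting error only. Every member is named, and of each pathway list up to 3 genes per comparison with the greatest log2 change among those called. Alternatives were another pseudocount (0.1), no filter, edgeR, DESeq2 (1.42.0), other scalings, 1 fit over all 5 groups, a replicate block and leaving out each library. The test was tried on simulated data with 200 changed genes.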

Additional observations from a re-analysis of the deposited data

Results flagged for a closer look

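The GE minus LE difference of Areg differed between the genotypes by a test of that difference itself. It was -1.95 on the log2 scale in wild type and 3.96 in E-OEX, a difference of 5.91 (SE 0.93, limma adjusted p = 0.00199). In wild type all 3 LE libraries (539 to 1254) lay above all 3 GE libraries (176 to 281), and in E-OEX all 3 GE libraries (97.1 to 341) lay above all 3 LE libraries (2.72 to 19.2). The epithelia did not overlap for 95.9% of the genes listed in wild type and 89.9% of those listed in E-OEX. Both lists were selected for this difference, so the separation itself describes that selection. The interaction was tested on the same values, among genes listed in both sets. A listed gene with opposite orders in the 2 genotypes generally lies far from 0 in this test, so its p-value is not independent of the selection. Over 19 alternatives the difference ranged from 4.38 to 6.34, with adjusted p from 1.26e-08 to 0.00894. With 3 libraries a group, no library was tested as standing apart from its group.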

How the results depend on the processing

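Areg kept its direction and its call in every alternative run for E-OEX against wild type in LE (log2 -6.90 to -5.78), U-OEx against wild type in LE (-7.98 to -6.64), the interaction and both GE minus LE differences. Erbb2 had no settled sign against wild type in LE, and kept its sign between U-OEx and E-OEX (-0.62 to -0.08 over 15 alternatives, not called in any). Against wild type in LE it was -0.083 to 0.31 for E-OEX without single libraries, and for U-OEx it was 0.0061 on the deposited scale, 0.71 with quantile normalization and -0.16 to 0.17 without single libraries; its interaction was -0.0040 with quantile normalization. In E-OEX against wild type in LE, 277 genes became 105 without a filter, 454 with DESeq2, 616 in 1 fit over 5 groups and 56 to 322 without single libraries (56 and 115 without wild-type replicates 3 and 2, 76 and 62 without E-OEX replicates 1 and 2). In GE, 670 became 288 in the 5-group fit and 363 to 732 without single libraries (363 and 430 without wild-type replicates 1 and 3). The interaction's 315 became 179 to 449 without single libraries (192 without wild-type LE replicate 3, 192, 209 and 179 without wild-type GE replicates 1, 2 and 3, and 202 without E-OEX GE replicate 2 or 3), and 470 with DESeq2. U-OEx against wild type in LE went from 3384 to 1273 in the 5-group fit, in which 2819 genes were tested and the scaling also changed. U-OEx against E-OEX went from 642 to 286 without a filter and 60 to 905 without single libraries (340 and 351 without E-OEX replicates 2 and 3, 60, 353 and 87 without U-OEx replicates 1, 2 and 3). The cause of these shifts was not tested. On the deposited scale, calls for E-OEX against wild type were higher in 71.6% in GE (41.3% after TMM; the median of all genes was 0.50 and 0.05) and in 58.6% in LE (48% after TMM). Calls higher in GE within E-OEX fell from 67.2% to 56.8% with TMM and 46.2% with quantile normalization (medians 1.75, 1.07 and 0.44), and those of the interaction from 54.3% to 43.9% and 42.9%. Within wild type the median of all genes was 1.36, 1.13 with TMM and 0.77 with quantile normalization. Without a filter the higher share for E-OEX in LE was 58.1%. Libraries with the same replicate number did not deviate together (correlations -0.284 to 0.188, and in no comparison did all 3 numbers match best with themselves). With a replicate block the counts, in the order of GE minus LE in wild type and in E-OEX, E-OEX against wild type in LE and in GE, the interaction, and U-OEx against wild type and E-OEX, were 6187, 4374, 292, 718, 314, 3180 and 616; the block changed no call of a member. Members with few reads (Ereg, Erbb4) are limited by counting, and full depth is known only for U-OEx tables.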

Other observations

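Areg is not the only gene whose deposited name is the symbol of another listed gene. Of 27440 identifiers with a GENCODE symbol, 639 carry another deposited name, and for 15 that name is the symbol of another listed identifier. Among the 15, Areg alone is listed in every table. For example, the name Itgam also stands at the identifier of Gm49368 and the name Magi1 at that of Cnksr3, and these 2 examples were picked after the names were seen. The mitochondrial gene Mcub, with which Areg would be confused by name, averaged 448 ± 353 (SD, n = 3) in wild-type LE, 37.1 ± 2.24 in wild-type GE, 143 ± 117 and 10.1 ± 2.69 in LE and GE of E-OEX, and 171 ± 21.4 in LE of U-OEx, as deposited values. In E-OEX, Mcub was thus higher in LE while Areg was higher in GE.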
